A study of Paralichthys olivaceus with 2 samples.

Results

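The probes described here belong to microRNA (miRNA) arrays of Paralichthys olivaceus, the Japanese flounder. This fish hatches as an upright larva and becomes, at metamorphosis, a bottom dweller with both eyes on one side. They are the PC-coded candidate probes whose mean density, over the 3 spots of a probe, was at least 10000 at 29 days post hatching (dph) or at 17 dph. Of the 544 PC-coded probes 20 met this rule, out of 987 probes on the array. One array held RNA of whole larvae at 29 dph, labelled mid-metamorphosis, and the other RNA of whole larvae at 17 dph, labelled pre-metamorphosis. Each sample pooled 5 larvae in a tube, anaesthetised at collection, and the labels name no strain or genotype. With 1 array per stage no difference between stages has a replicate check, no test between stages was possible, and every SD below is over the spots of a probe on 1 array.

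Density is the deposited brightness of a spot on a linear scale, without background subtraction. Because the 20 probes were chosen for their density on these arrays, their densities and the differences between stages are a description. The files give each probe a target sequence but name no source RNA for the PC-coded probes, and genome positions were not analysed here. Whether a target lies in a miRNA precursor, in ribosomal or transfer RNA or in another abundant RNA was not tested, so the differences below are those of the target sequences and not of named RNAs.

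A miRNA is a short RNA, cut from a hairpin, that guides repression of messenger RNAs. Small RNA for these arrays was selected by size, given a poly(A) tail and joined to a tag for Cy5 staining. Such labelling also takes up other short RNAs of the fraction, among them transfer RNA, 5S ribosomal RNA (rRNA) and pieces of longer RNAs. Ribosomal RNA is part of the ribosome and makes up most of the RNA of an animal cell, and 5S rRNA probes serve as controls on these arrays.

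Grouped by targets that overlap by at least 14 nt, the 20 probes fell into 3 sets and 4 lone probes. Set A held 10 probes, whose targets together span 24 nt and all contain a stretch of 15 nt, in capitals below. The 5 shown are its 2 members of 23 nt, which reach furthest to the 5′ end, and its 3 shortest members, of 16 and 17 nt.
PC506: gcuacgccUGUCUGAGGGUCGCU
PC163: cuacgccUGUCUGAGGGUCGCUu
PC166: cUGUCUGAGGGUCGCUu
PC74: cUGUCUGAGGGUCGCU
PC494: UGUCUGAGGGUCGCUu

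Set B held 4 probes, whose targets span 23 nt and share 16 nt, in capitals. All are shown, since they were the brightest probes of the 29 dph array.
PC51: ACAACUCUUAGCGGUGgau
PC49: ACAACUCUUAGCGGUGgaucac
PC231: gACAACUCUUAGCGGUG
PC124: ACAACUCUUAGCGGUGga

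Set C held 2 probes, whose targets span 24 nt and share 19 nt, in capitals.
PC404: ACCUCAGAUCAGACGAGACaacc
PC185: gACCUCAGAUCAGACGAGAC

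The other 4 probes overlapped no other member by 14 nt. They are shown because every lone member is named. Each met the density rule at 29 dph only, so the rule itself favoured a higher density at 29 dph than at 17 dph.
PC490: augacuugcagacgacc
PC18: gagaagacgaucaaacuugac
PC445: uuaagagacaugagagguguag
PC351: cggcccuggcggagcgccg

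The longest stretch shared by members of different groups was 7 nt, between PC404 and PC490. No conserved miRNA probe shared 14 nt or more with a member, and the longest stretch in common with any of the 263 conserved targets was 9 nt. Members of a set share their target, so they are repeated readings of related sequence and not separate measurements.

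In unscaled density the 3 sets differed in direction between the stages. The median ratio of 29 dph over 17 dph was 5.24 over the 412 probes detected on both arrays, above those of sets A and B. After scaling the sign of set B depended on the method, as given below. Set A was dimmer at 29 dph than at 17 dph, with a median density over its 10 probes of 28146 at 29 dph and 47436 at 17 dph. Set B was brighter at 29 dph, with medians over its 4 probes of 52513 at 29 dph and 27752 at 17 dph. Set C and the 4 lone probes were brighter at 29 dph by larger ratios, between 6.56 for PC351 and 22.4 for PC445. At 17 dph the sets A and B alone reached the density of 10000, whereas at 29 dph all 20 probes did, so 14 probes met the rule on both arrays and 6 at 29 dph only.

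The spots of the 2 arrays did not overlap for any of the 20 probes. Of the 688 probes detected on at least 1 array, 91.4% likewise had spots that did not overlap, so this is the usual state of these arrays. Detection asked that 50% or more of a probe's spots exceed a limit set 3 SD over the mean empty spot. This limit stood at 45.6 for the 29 dph array and at 68.7 for the 17 dph array. All 20 members were detected on both arrays. The mean density was lower at 29 dph for 10 of the 20 members, all of set A, and for 6.8% of the 412 probes detected on both arrays. Nothing is read from this count, since the rule used these densities. Of the 28 probes that make up this 6.8%, 11 contain the 15 nt shared by set A, and these 11 overlap and are not independent.

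In set A the brightest probe at 29 dph was PC166, whose spots read 29751, 31036 and 32967 at 29 dph, against 44106, 47404 and 53888 at 17 dph. Every spot at 29 dph lay below every spot at 17 dph. PC506, the brightest at 17 dph, had spots of 27235, 27816 and 28137 at 29 dph and of 47780, 49313 and 49576 at 17 dph. PC494, whose target begins with the shared stretch, was the dimmest of the set at 29 dph, with spots of 24000, 24645 and 24952 at 29 dph and of 42803, 47423 and 48660 at 17 dph. These probes point the same way, and the ratio of the mean densities, 29 dph over 17 dph, ran from 0.530 for PC494 to 0.645 for PC166 over the 10 probes, with a median of 0.603.

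Short and long targets of set A were similarly bright. The 3 targets of 16 to 17 nt had mean densities of 24532 to 31251 at 29 dph and of 46295 to 48466 at 17 dph. The 7 targets of 19 to 23 nt had mean densities of 25642 to 29328 at 29 dph and of 44990 to 48890 at 17 dph. The ranges of the short and the long targets overlapped on both arrays. The CV of the mean densities over the 10 probes was 6.75% at 29 dph and 2.53% at 17 dph, against median spot CVs of 3.06% and 4.97%. Means of 3 spots vary less than single spots, so the CV over probes and the spot CV are not on the same scale. At 17 dph the spot ranges overlapped for 43 of 45 pairs of probes. At 29 dph they overlapped for 23 of 45 pairs.

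The members of set A also differ at their 3′ end, where 5 targets stop with the shared stretch and 5 carry a further U. The 5 that carry the U had mean densities of 24532 to 31251 at 29 dph, with a median of 29029. The 5 that do not carry it had mean densities of 25642 to 28548, with a median of 27729. At 17 dph the medians were 47406 with the U and 47466 without it. The ranges of these subgroups overlapped on both arrays.

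In set B the brightest probe on either array was PC51. Its spots read 54284, 55541 and 55681 at 29 dph, against 28990, 29269 and 29454 at 17 dph. Every spot at 29 dph lay above every spot at 17 dph. PC49, which extends furthest to the 3′ end, had spots of 50468, 52717 and 55261 at 29 dph and of 25189, 27661 and 27791 at 17 dph. PC231, which alone begins 1 base further to the 5′ end, had a mean density of 52210 ± 3507 at 29 dph and 27767 ± 1689 at 17 dph (SD, 3 spots). For PC124 the mean densities were 52009 ± 4820 at 29 dph and 27738 ± 1378 at 17 dph.

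The 4 probes of set B thus lay close together on each array, although their targets run from 17 to 22 nt. Their ratios of 29 dph over 17 dph ran from 1.88 to 1.96. The CV over the probes, of means of 3 spots, was 2.74% at 29 dph and 3.51% at 17 dph. The median spot CVs, of single spots, were 5.63% and 5.21%. The spot ranges overlapped for 6 of 6 pairs at 29 dph and for 5 of 6 at 17 dph. Whether compression at high density draws the 4 probes together was not tested, nor was it for set A. At 29 dph these 4 were the brightest of all 987 probes, whereas at 17 dph they ranked 12 to 15, just below set A.

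In set C, PC404 had spots of 14266, 15401 and 15592 at 29 dph, against 1173, 1181 and 1237 at 17 dph. PC185 had spots of 12900, 13638 and 14949 at 29 dph, against 1152, 1157 and 1231 at 17 dph. Both were brighter at 29 dph in every spot, with unscaled ratios of 12.6 and 11.7, and the spot ranges of the pair overlapped on each array. Both met the density rule at 29 dph only, so the rule itself favoured this direction.

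Among the lone probes, PC490 was the brightest. Its spots read 30444, 31880 and 32408 at 29 dph and 4215, 4676 and 4963 at 17 dph, a ratio of 6.84. PC18 had spots of 24119, 25983 and 26353 at 29 dph and of 2809, 2859 and 2906 at 17 dph, a ratio of 8.92. Both stood at 29 dph within or near the range of set A, and at 17 dph far below it. PC445 had spots of 12202, 12721 and 13184 at 29 dph and of 542, 576 and 587 at 17 dph, the largest ratio of the 20 at 22.4. PC351, with a target GC content of 89.5%, the highest of the members, had spots of 11640, 12056 and 13476 at 29 dph and of 1845, 1905 and 1913 at 17 dph, a ratio of 6.56.

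Ratios of this size were common on these arrays. The median ratio of 29 dph over 17 dph was 6.80 for the other PC-coded probes detected on both arrays (266 of 524) and 2.66 for the conserved probes detected on both (68 of 263). PC490, at 6.84, and PC351, at 6.56, therefore lay beside the median of the other candidates. Set C, PC18 and PC445 lay above it, and sets A and B below it.

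Probes outside the rule that share letters with a member behaved unevenly. PC498 lies wholly within the span of set C, yet it was below the detection limit at 17 dph and at 2.33 times the limit at 29 dph. Its target and those of PC39 and PC440, which reach beyond the 5′ end of set C, are shown with the letters shared with a member in capitals.
PC498: CAGAUCAGACGAGACA
PC39: cuacGACCUCAGAUCAG
PC440: uacGACCUCAGAUCAGAu

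PC498 had spots of 94.5, 103.8 and 119.7 at 29 dph and of 47.8, 48.2 and 49.2 at 17 dph, although all its 16 letters are in the target of PC404. The 2 probes of 16 nt in set A, PC74 and PC494, by contrast had mean densities of 28548 and 24532 at 29 dph, against 25642 to 29328 for the targets of 19 to 23 nt. PC39, which reaches further to the 5′ end than set C and shares 13 nt with PC185, had a mean density of 5670 ± 589 at 29 dph and 274.3 ± 40.0 at 17 dph. PC440 shares 14 nt with PC185 and then departs from it at its last base, and had a mean density of 3107 ± 114 at 29 dph and 131.3 ± 23.9 at 17 dph. Their ratios were 20.7 for PC39 and 23.7 for PC440, against 12.6 and 11.7 in set C. At 17 dph PC39 stood at 3.99 and PC440 at 1.91 times the detection limit, against 17.4 for PC404 and 17.2 for PC185. PC448, which shares 13 nt with the lone PC351, had a mean density of 7489 ± 139 at 29 dph and 278.3 ± 18.9 at 17 dph, a ratio of 26.9 against 6.56 for PC351. At 17 dph PC448 stood at 4.05 times the limit and PC351 at 27.5 times. Density has no background subtraction, so the ratios of these neighbours and of the members are not on a like footing.

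At 29 dph the densities ran on below the threshold of 10000 without a wide gap. The 3 members nearest to it from above were PC351, PC445 and PC185, with 12390, 12703 and 13829 at 29 dph. The 3 PC-coded probes nearest from below were PC267, PC43 and PC241, with 9955, 9472 and 9384 at 29 dph and 667, 1186 and 1437 at 17 dph. At 17 dph the gap was wide: the dimmest probe of set B stood at 26880 and the next PC-coded probe, PC490, at 4618.

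The members were set against the brightest conserved miRNAs. At 29 dph that was miR-206, a miRNA of skeletal muscle, with spots of 10456, 10712 and 10965 at 29 dph and of 1597, 1665 and 1699 at 17 dph. At 17 dph it was miR-214, with spots of 4117, 4339 and 4523 at 29 dph and of 1815, 2024 and 2067 at 17 dph. All 20 members lay above every conserved probe at 29 dph, with ranks between 1 and 21 of 987, and miR-206 stood at 22. This order follows largely from the rule, since all 20 members met its density threshold at 29 dph. At 17 dph the 14 members of sets A and B and the lone probes PC490 and PC18 lay above miR-214, while PC351, PC404, PC185 and PC445 lay below it. The 14 members of sets A and B also met the threshold at 17 dph, so their place above miR-214 likewise follows from the rule. Densities of different probes also depend on how each binds, so these ranks are no measure of relative RNA amount.

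The density ratios of these miRNAs, 29 dph over 17 dph and without scaling, were 6.48 for miR-206 and 2.20 for miR-214. Over the 412 probes detected on both arrays the median ratio was 5.24, so that of miR-214 lay below it. The ratio of miR-206 was close to those of PC351 and PC490, and the ratios of both miRNAs exceeded those of sets A and B. Their scaled values, given below, differ from these. miR-206, the liver miRNA miR-122 and the gut miRNA miR-192 were detected at both stages. miR-122 had mean densities of 5269 at 29 dph and 767 at 17 dph, and miR-192 had 6769 and 637.

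The 5S rRNA controls are 6 probes of 4 spots each, whose target sequences are not given in the files used here. Of these, 4 were above the detection limit on both arrays and 2 (dre-5S-b5 and dre-5S-b6) were near the level of empty spots. The brightest at 29 dph was dre-5S-b2, with 42600 ± 3927 at 29 dph and 49152 ± 3347 at 17 dph (SD, 4 spots). The brightest at 17 dph was dre-5S-b3, with 32449 ± 3185 at 29 dph and 57034 ± 3195 at 17 dph, and its spots did not overlap between the arrays. dre-5S-b1 had 37816 ± 3364 at 29 dph and 33851 ± 2386 at 17 dph, and dre-5S-b4 had 4444 ± 494 at 29 dph and 5015 ± 193 at 17 dph.

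At 29 dph the mean densities of dre-5S-b1, dre-5S-b2 and dre-5S-b3 lay above all of set A and below all of set B. At 17 dph set A lay between dre-5S-b1 and dre-5S-b2, and set B lay below all 3 of these. The ratio of dre-5S-b3, 0.569, lay within the range of set A, and those of dre-5S-b1, dre-5S-b2 and dre-5S-b4, at 1.12, 0.867 and 0.886, lay between set A and set B. The ratio of set B, with a lowest value of 1.88, exceeded that of every 5S probe. The 7 calibration probes with a density over 1000 on both arrays had ratios from 0.593 to 2.90, and 4 of them were dimmer at 29 dph, so the arrays have no single scale factor that fits all controls. The highest spot of any kind was 60748, on dre-5S-b3 at 17 dph. The array tables have no saturation flag, and whether densities at this level are compressed was not tested.

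The members held much of the brightness of the arrays. As they were chosen for their density, this follows in part from the rule. Summed over the mean densities of all 987 probes, the 20 members made up 42.3% at 29 dph and 75.5% at 17 dph. The other PC-coded probes made up 42.1% at 29 dph and 11.5% at 17 dph, and the conserved probes 6.92% and 3.54%. Overlapping probes count the same target several times in such a sum. Of the 15 brightest probes, 14 were members on each array, and the other was PN193, at rank 5 at 29 dph and rank 1 at 17 dph.

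Between the stages, normalized values were compared as well. Densities were background-corrected and quantile-normalized, so that the probes of both arrays took on a common distribution, and log2 differences (29 dph minus 17 dph) of at least 1 in size with spots that did not overlap were called. Of the 20 members 5 were called higher at 29 dph, against 12.6% of the 688 detected probes, and 2 were called lower, against 12.1%. Without scaling, 6 members were called higher, against 66% of the detected probes, and 0 lower, against 0.872%. With scaling by the 75th percentile of probes seen at both stages, 1 was called higher, against 5.67% of the detected probes, and 14 lower, against 54.7%. With cyclic loess 1 was likewise called higher and 14 lower, but against 7.70% and 13.8% of the detected probes. Since the rule used these densities, nothing is read from these counts. The median log2 difference of the 20 members was 0.079, beside 0.050 for all detected probes, and it turned negative under 4 of the 11 alternatives run, at -3.06 to -1.46. The 5 called higher were PC404, PC185, PC490, PC18 and PC445, and the 2 called lower were PC105 and PC494 of set A.

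Normalized log2 differences ranged from -2.02 for PC494 to -0.14 for PC166 in set A, with a median of -0.38. They ranged from 0.89 for PC51 to 0.94 for PC49 in set B, with a median of 0.90 and no call. The median of set B turned negative under 4 of 10 alternatives, at -2.28 to -0.69. PC404 had a difference of 1.12 and PC185 one of 1.04. PC490 stood at 1.84, PC445 at 1.76, PC18 at 1.56 and PC351 at 0.29, the last without a call. PC490 turned to -0.11 and -0.44, PC18 to -0.054 and PC351 to -0.18 and -0.46 under the 75th percentile scaling or cyclic loess. Of the brightest conserved miRNAs, miR-206 stood at 0.22 after quantile normalization, without a call, and miR-214 at -1.56, called lower at 29 dph.

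The calls of PC494 and PC105 set these probes apart from the rest of set A more than their densities do. Their density ratios were 0.530 and 0.552, against 0.567 to 0.645 for the other 8, while their normalized differences were -2.02 and -1.52, against -0.63 to -0.14. The common distribution is steep at this point, since ranks 15 and 16 had densities of 26880 and 4618 at 17 dph. At 29 dph ranks 15 and 16 had 25642 and 25485. PC105 held rank 15 there, with a normalized spot SD of 0.72, and PC494 rank 17, with one of 0.061. The higher calls of PC18 and PC490 involve the same step. PC18 had rank 16 at 29 dph, where its normalized spot SD of 0.82 was the largest of the 20 members. Its difference of 1.56 became 2.03 with the median of the spots. PC490 had rank 16 at 17 dph and rank 6 at 29 dph, and its difference stayed at 1.84 with the median of the spots. How much of the differences of PC494, PC105, PC18 and PC490 comes from the step was not tested.

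The distance of set B from set A depended less on the scaling than the difference of either set did. The median log2 difference of set B minus that of set A was 1.28 after quantile normalization and 1.64 without scaling, and it lay between 1.25 and 1.71 over 11 ways of processing that were compared. The distance of set C from set A varied as much as the difference of set C itself. It was 1.46 after quantile normalization and 4.32 without scaling, and it was positive in all 11, from 0.99 to 4.36. Set C met the density rule at the later stage only and set A at both stages, so the rule itself favoured a positive distance. The order of sets B and C was not stable: C minus B was 0.18 after quantile normalization, 2.67 without scaling and -0.72 in the authors' deposited table. Scaling both arrays by a single factor cannot change these distances, which is why 5 of the 11 give the same values.

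The authors' deposited table of processed intensities holds all 20 members, and its steps are not given. Set A had a median of 30814 at 29 dph and 43294 at 17 dph in the authors' deposited table, with a median ratio of 0.721. Set B had 58150 at 29 dph and 24981 at 17 dph in that table, with a median ratio of 2.36. For set C the deposited table gives 4875 at 29 dph and 3396 at 17 dph, a median ratio of 1.44, where the densities give 12.2. The directions are the same, but the densities are not scaled between the arrays, so the sizes of these ratios are not alike. Over all detected probes the median log2 difference was -0.025 in the authors' deposited table, 0.050 after quantile normalization and 1.59 without scaling. The log2 difference of set C was 0.51 in the authors' deposited table, 1.08 after quantile normalization and 3.59 without scaling. The lone probes had ratios of 1.96 to 3.58 in the authors' deposited table, against 6.56 to 22.4 in the unscaled densities. The ratios of miR-206 and miR-214 in that table were 0.745 and 0.240.

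The targets of the members were also described by their letters, against the 524 other PC-coded probes. Members ran from 16 to 23 nt with a median of 20 nt, and the others from 16 to 23 nt with a median of 18 nt. The median GC content was 57.5% in the members and 64.7% in the others. GC content was 56.2% to 68.4% in set A, 47.4% to 52.9% in set B, 55.0% and 52.2% in PC185 and PC404, and 40.9% to 89.5% in the lone probes. No member had a run of 4 or more of the same base, against 27.1% of the other PC-coded probes. A first base U, which is common among miRNAs, was found in 4 of the 20 members, in 26.9% of the other PC-coded probes and in 57.8% of the conserved probes. With 16 of the 20 members in 3 overlapping sets, such shares mainly describe those sets.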

How the data were processed

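Small RNA of 2 samples of whole flounder larvae, 1 at 29 dph and 1 at 17 dph, was hybridised to single-colour Cy5 arrays, per the labels' protocols. The deposited array tables give each of 3968 spots a mean density, a linear intensity with no background subtraction or scaling between arrays, as judged from the values. Of these spots 2961 belong to 987 probes in 3 spots each and 715 are empty. The authors' deposited series table gives 1 processed intensity per probe. No source used here states its background or scaling steps.

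The normexp background step of limma 3.58.1 (R 4.3.3, offset 50) was fitted on all spots, and values were log2-transformed, quantile-normalized over the probe spots and averaged per probe. No p-value was computed with 1 array per stage, and the number of arrays limits the precision. Targets were joined by exact overlap of at least 14 nt in register, by single linkage. Tables were made with Python 3.11.15, pandas 2.3.3 and NumPy 2.4.6. Calling was tested on simulated data, with both simulated arrays built from the 29 dph densities. The changed probes there were drawn from those with a density below 10000, so the test did not cover changes at the densities of the members.

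The members, sets and comparisons were chosen with earlier results of these data known. Every set and lone member was named, with the brightest member of a set at each stage and those of most positive and most negative difference, the 3 probes nearest the threshold on each side, the brightest conserved miRNA of each array and the 5S probes. Probes that share letters with a member were looked for, and the distances between sets computed, after the values were seen, so neighbours and some further members are named outside this rule. Alternatives were other scalings, background steps, thresholds and overlaps, and the authors' table, to which 50 was added before log2.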

Additional observations from a re-analysis of the deposited data

Results flagged for a closer look

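One signal appeared outside the PC-coded probes. PN193, a PN-coded candidate that the rule on names leaves out, contains the 15 nt shared by set A and lies within its span. It is shown with that stretch in capitals.
PN193: ccUGUCUGAGGGUCGCUu

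PN193 had a mean density of 40590 ± 946 at 29 dph and 50658 ± 3450 at 17 dph (SD, 3 spots). It was the brightest of all 987 probes at 17 dph and brighter at 29 dph than every member of set A, whose highest mean density was 31251. Its ratio of 29 dph over 17 dph was 0.801, against 0.530 to 0.645 in set A. In density the direction is the same as in set A, with spots of 39678 to 41566 at 29 dph and of 47033 to 53902 at 17 dph that do not overlap. After quantile normalization the log2 difference of PN193 was -0.13, without a call. In the authors' deposited table PN193 was higher at 29 dph, with 48111 against 42648 at 17 dph. Its ratio there was 1.13, against 0.596 to 0.808 in set A, so the direction of PN193 depends on the processing.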

How the results depend on the processing

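With no scaling, 0 members were called lower, against 0.872% of the detected probes, and set A stood at -0.73 and set C at 3.59. Scaling by the median probe among those detected at both stages gave 3 higher and 14 lower, against 11.5% and 45.2% of the detected probes. The member median was then -2.28, with set A at -3.15 and set B at -1.51. Scaling by the 75th percentile of the probes detected at both stages gave 1 higher and 14 lower, against 5.67% and 54.7%. The member median was then -2.75, with set A at -3.61, set B at -1.97, set C at 0.70 and PC490 at -0.11. Scaling to the conserved probes gave 10 lower, against 24.7%. The member median was then -1.46, with set A at -2.33, set B at -0.69 and set C at 1.99. Scaling to the 5S spots gave 8 higher and 0 lower, against 68.0% and 0.727%, with set B at 0.999 and set C at 3.67. All 5S spots entered that median, also those of dre-5S-b5 and dre-5S-b6 near the level of empty spots. The median therefore fell in the gap between dre-5S-b4 and the brighter 5S probes, and rests on few spots. Cyclic loess gave 1 higher and 14 lower, against 7.70% and 13.8%. The member median was -3.06, with set A at -3.92, set B at -2.28, set C at 0.43, PC18 at -0.054 and PC490 at -0.44. The authors' deposited table, with no condition on spots, gave 0 lower, against 12.8%, with set B at 1.24 and set C at 0.51. A threshold of 1.5-fold gave 9 higher and 3 lower, and one of 4-fold 0 higher and 1 lower. No share over all detected probes was computed for these thresholds, so nothing is read from these counts. Taking 1 value per group gave a median of 1.08. A density threshold of 5000 gave 50 members, and an overlap of 18 nt gave 11 groups in place of 7. The causes were not tested. The median of all detected probes was 1.59 with no scaling, -0.83, -1.29 and -0.012 with scaling to the median, the 75th percentile and the conserved probes, 1.67 with the 5S spots and -0.0022 with cyclic loess.

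Set A was negative and set C positive under all 10 alternatives to their log2 difference, and PC445 was positive in all 10, from 1.35 to 4.53. Set C and PC445 met the density rule at the later stage only, so the rule itself favoured a positive difference for them. All the alternatives process the same arrays again, so a constant sign is no replicate check. Set B changed direction with the scaling, from -2.28 to 1.24. Over the 81 alternatives to a log2 difference or median, the sign changed in 13, of which 4 were for set B, 4 for the member median, 2 each for PC351 and PC490 and 1 for PC18. No paired analysis was possible because each stage has 1 array.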
